A study of Mus musculus with 9 samples.

Results

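Natural killer (NK) cells read their targets through a small set of surface receptors, and 10 genes for such receptors were followed here: Klrb1c, Klrd1, Klrk1, Klrc1, Klrc2, Klrg1, Klre1, Klra3, Klra8 and Ncr1. They were found by gene name in the array files, with every probe kept, which gave 16 probes of 41174 on the array. Of these genes 9 lie on chromosome 6 and Ncr1 lies on chromosome 7. The series compared 2 fractions of primary prostate cells from BL6 mice, sorted by FACS (fluorescence-activated cell sorting) and otherwise untreated as far as the labels say; ages are not given in the sources used here. The marker-positive fraction (Lin-CD44+CD133+Sca-1+CD117+, 3 arrays) is called stem cell in the labels. The marker-negative fraction (Lin-CD44-CD133-Sca-1-CD117-, 6 arrays) lacked all 4 surface proteins and is called non-stem. Both fractions were lineage-negative, and the labels do not name the antibodies of that lineage gate. On every array amplified sorted-cell RNA carried Cy5 and a Universal Mouse Reference pool carried Cy3, so each value is a log2 ratio of sorted cells to that pool and dyes were never swapped. Whether each array stands for its own animal is not said in the labels, and the spread behind each p-value may therefore be technical.

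Killer cell lectin-like receptors are type II membrane proteins with a C-type lectin-like domain, and in mice most of their genes lie together in the NK gene complex. Inhibitory members read class I molecules on healthy cells and recruit phosphatases through motifs in their tails, while activating members lack such motifs and pair with adaptors such as DAP12 and DAP10. NK cells are the main carriers, but subsets of cytotoxic T cells and innate lymphoid cells carry several of the same receptors. Transcription factors of the T-box, Runx and Ets families and Nfil3 shape NK cell development.

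RefSeq promoters (build GRCm38.p6, 250 bases before the first listed start) were found for 8 of the 10 genes, Klrd1 and Klrg1 not being listed. Shown here are Klrb1c, whose transcript gave the 1 called difference, Ncr1, the member outside the killer lectin-like family, and Klra3 and Klra8, near copies of each other. Capitals mark matches, on either strand, to the letters TCACAC (T-box half-site), TGTGGT (Runx core), AGGAAG (Ets core) or TTACGTAA (Nfil3).
Klrb1c (chr6:128788642-128788891, minus strand): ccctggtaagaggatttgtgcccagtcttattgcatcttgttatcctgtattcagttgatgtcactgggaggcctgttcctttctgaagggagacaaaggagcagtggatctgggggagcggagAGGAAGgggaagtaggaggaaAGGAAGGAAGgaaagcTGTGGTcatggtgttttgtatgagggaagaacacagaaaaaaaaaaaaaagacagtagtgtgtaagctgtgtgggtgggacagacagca
Ncr1 (chr7:4337465-4337714, plus strand): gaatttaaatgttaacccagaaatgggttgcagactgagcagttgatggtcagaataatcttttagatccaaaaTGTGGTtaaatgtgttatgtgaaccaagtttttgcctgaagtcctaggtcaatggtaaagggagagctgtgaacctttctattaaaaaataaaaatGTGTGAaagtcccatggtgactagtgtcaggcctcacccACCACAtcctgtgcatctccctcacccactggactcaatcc
Klra3 (chr6:130337627-130337876, minus strand): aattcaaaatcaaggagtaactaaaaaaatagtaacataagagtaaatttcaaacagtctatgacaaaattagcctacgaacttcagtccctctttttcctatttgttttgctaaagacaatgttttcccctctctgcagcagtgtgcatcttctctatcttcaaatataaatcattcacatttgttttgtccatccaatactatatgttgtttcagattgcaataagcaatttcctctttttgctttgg
Klra8 (chr6:130129899-130130148, minus strand): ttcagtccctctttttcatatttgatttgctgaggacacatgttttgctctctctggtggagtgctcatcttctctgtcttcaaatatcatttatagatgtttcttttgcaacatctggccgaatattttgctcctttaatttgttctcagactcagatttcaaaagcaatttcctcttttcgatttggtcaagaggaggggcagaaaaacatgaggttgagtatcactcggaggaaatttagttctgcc
The Klrb1c window held 1 Runx core and 3 Ets cores, of which a pair overlap. Ncr1 had 2 Runx cores and 1 T-box half-site, and Klra3 and Klra8 had none of these letters. Over the 8 promoters the Runx core was present in 6 (Klrb1c, Klrk1, Klrc1, Klrc2, Klre1 and Ncr1), against 14.0% of 32851 RefSeq promoters of the same length. The Ets core was present in 1 of 8 against 29.5%, the T-box half-site in 1 of 8 against 12.3%, and the Nfil3 letters in 0 of 8 against 0.113%. Klra3 and Klra8 shared 138 of 167 aligned promoter bases (82.6%). A match describes these letters and is not a site, and the absence of one says nothing about the factor.

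Tests were run with limma on 28340 probes, standing for 19857 genes, that rose well above background in Cy5 on 3 or more arrays, with Benjamini-Hochberg adjustment over all of them and a threshold of 0.05. They called 311 genes higher (1.57%) and 332 genes lower (1.67%) in the marker-positive fraction. That split was 141 to 85 with median centring in place of loess and 221 to 363 with the scanner's processed signals. Cy5 signal was well above background for 45.4% to 69.5% of probes per array. Log2 ratios over all tested probes correlated at 0.580 to 0.920 between marker-positive arrays, at 0.666 to 0.901 between marker-negative arrays and at 0.490 to 0.734 between groups, and marker-positive replicate 3 gave the low values of its group. As a check of the labels, transcripts of the sort markers Ly6a (3.93), Kit (3.45) and Cd44 (2.06) were higher in marker-positive cells on the log2 scale, and Prom1 (-0.44, limma adjusted p = 0.766) did not pass. Leaving out marker-positive replicate 1 ended all 3 of these calls, leaving out replicate 2 those of Ly6a and Kit, and the Kit call was lost on every omission other than that of marker-negative replicate 3. Slide as a fixed block ended the Kit and Cd44 calls.

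Of the NK receptor transcripts, Klrb1c was lower in marker-positive cells, no other member passed the test and no member was higher. Klrd1 and Klra8 were well above background on all 9 arrays, while Ncr1 was at background on every marker-positive array. Klrk1, which was not tested, was at background in both groups except on marker-negative replicate 4. On the marker-negative arrays 6 to 14 of the 16 probes were well above background, against 4 to 7 on marker-positive arrays. Of all 16 probes 13 had a lower and 3 a higher mean in marker-positive cells. In bulk RNA of this kind, fewer cells of a type and less RNA per cell cannot be told apart.

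**Figure D1:**
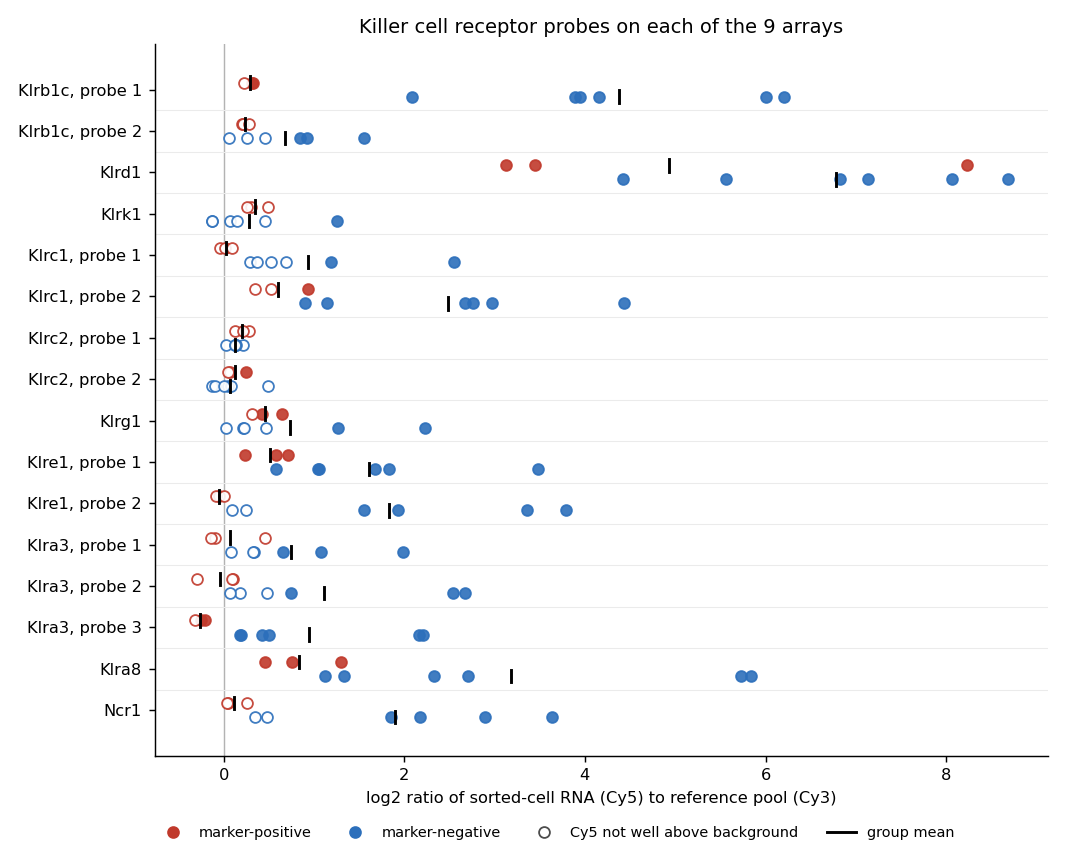
Log2 ratio of sorted-cell RNA to the reference pool for the 16 probes of the 10 genes, with 1 point per array in both groups (3 marker-positive, 6 marker-negative), filled where Cy5 was well above background, and a bar at each group mean. Klrb1c probe 1 lies between 0.23 and 0.32 on the marker-positive arrays and between 2.09 and 6.20 on the marker-negative ones, while the Klrd1 point of marker-positive replicate 3 (8.23) lies among the marker-negative points.

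Of the 10 genes 8, with 12 probes, passed the filter on low values; Klrk1, Klrc2 and 1 of the Klrc1 probes did not. Among the 12 tested probes, 5 were at background on every marker-positive array and so passed through the marker-negative arrays alone, so that the filter itself favoured a lower value for them. The members were chosen with earlier results of these data known, so the shares that follow describe them and are no test. The 1 called member of 8, Klrb1c, stands against 1.67% of all tested genes called lower. Unadjusted p lay under 0.05 for 4 of the 8 genes, Klrb1c, Klrc1, Klra3 and Ncr1, against 9.83% of all tested genes in that direction. Groups did not overlap for 3 of the 8, Klrb1c, Klra3 and Ncr1, against 6.47%. Ncr1, counted both here and under unadjusted p, passed the filter through the marker-negative arrays alone. The median difference, marker-positive minus marker-negative, was -1.82 over the 8 tested genes and -0.013 over all tested genes. Counted by probe, 1 of 12 was called lower against 1.98% of all tested probes, 5 of 12 had an unadjusted p under 0.05 against 10.6%, and 4 of 12 did not overlap against 6.77%. Ncr1 and Klre1 probe 2, both favoured by the filter, are counted among those under 0.05 and among those not overlapping. These counts are therefore not independent of the filter.

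Klrb1c encodes NKR-P1C, an activating receptor that is the NK1.1 antigen by which NK cells of BL6 mice are commonly stained. Its probe 1 (chromosome 6, 128801824 to 128801883, minus strand, build mm7) had log2 ratios of 0.32, 0.32 and 0.23 on the 3 marker-positive arrays in order. On the 6 marker-negative arrays the lowest value was 2.09, the median 4.05 and the highest 6.20. Every marker-negative array lay above every marker-positive one, and marker-negative replicates 4 and 6 were the highest. The mean was 0.29 ± 0.05 (SD, n = 3) in marker-positive cells and 4.38 ± 1.53 (SD, n = 6) in marker-negative cells. These differ by -4.09 (SE 0.81, limma adjusted p = 0.0279), which is 17.1-fold lower in marker-positive cells. Its signal was well above background on 2 of 3 marker-positive arrays and on 6 of 6 marker-negative arrays. With slide as a fixed block the difference was -3.66 (limma adjusted p = 0.264), and within slides 1 and 2, which hold both groups, it was -3.57 and -3.73. The call also ended without marker-positive replicate 1 (-4.11, limma adjusted p = 0.105) or 2 (-4.11, 0.0967) and without marker-negative replicate 1 (-4.19, 0.0540) or 5 (-4.14, 0.0553).

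A second Klrb1c probe (chromosome 6, 128807991 to 128808050) was dimmer. Its values were 0.21, 0.21 and 0.28 on the marker-positive arrays, and ran from 0.06 through a median of 0.65 to 1.56 on the marker-negative arrays. Here the groups overlapped, and only marker-negative replicates 4, 5 and 6 were well above background. The difference of -0.45 (SE 0.28, limma adjusted p = 0.426) did not pass. Since the marker-positive group was at background, the ratio was taken against a floor, which gave about 1.24-fold lower. Ratios of this kind set a mean against the lowest signal well above background per array in Cy5, and are open to dye bias. For each such ratio given here that mean includes marker-negative arrays at background, so the ratio is approximate and no strict bound. So the 2 probes of this gene disagree in size: their mean gave -2.27 (limma adjusted p = 0.0488).

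Klrd1 encodes CD94, the chain that pairs with NKG2 proteins to bind the class I molecule Qa-1. Its probe (chromosome 6, 129621685 to 129621744, plus strand) was well above background on all 9 arrays. The log2 ratios were 3.12, 3.45 and 8.23 on the marker-positive arrays, and 4.42 at the lowest, 6.98 at the median and 8.68 at the highest on the marker-negative arrays. Marker-positive replicates 1 and 2 lay below every marker-negative array, while replicate 3 lay above all of them but replicate 6. Marker-positive arrays averaged 4.93 ± 2.86 (SD, n = 3) and marker-negative arrays 6.78 ± 1.58 (SD, n = 6), and the difference of -1.85 (SE 1.23, limma adjusted p = 0.457) did not pass. Its size rested on single arrays: without marker-positive replicate 1 it was -0.94, without replicate 2 it was -1.10 and without replicate 3 it was -3.50 (limma adjusted p = 0.825, 0.795 and 0.0746). With slide as a fixed block it was -3.18, within slides 1 and 2 it was -3.70 and -2.80, and with the scanner's processed signals it was -0.64. With array weights it was -3.21 and was called (limma adjusted p = 0.0209).

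Klrc1 encodes NKG2A, the inhibitory partner of CD94. Its brighter probe 2 (chromosome 6, 129692885 to 129692944, minus strand), which the files assign to a cDNA, gave 0.35, 0.52 and 0.93 on the marker-positive arrays. On the marker-negative arrays it ran from 0.91 through a median of 2.71 to 4.43. The groups met at 1 point only, marker-positive replicate 3 standing just above marker-negative replicate 3. Cy5 was well above background on 1 of 3 marker-positive arrays, replicate 3, and on 6 of 6 marker-negative arrays, and the reference on none of the 9. The difference was -1.88 (SE 0.67, limma adjusted p = 0.162) and did not pass, and with the scanner's processed signals it was -2.91. Probe 1 (129702039 to 129703844, a span wider than the 60-base probe) was well above background only on marker-negative replicates 1 and 4 and was not tested. It read -0.04, 0.01 and 0.09 on marker-positive arrays and 0.29 at the lowest, 0.61 at the median and 2.56 at the highest on marker-negative arrays, with no overlap. Against the floor it was about 1.57-fold lower in marker-positive cells.

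Klrc2 encodes NKG2C, the activating partner of CD94. Its probe 1 (chromosome 6, 129687276 to 129687335) was not well above background on any of the 9 arrays and stayed between 0.03 and 0.28. Probe 2 (129684091 to 129684150) was well above background on marker-positive replicate 2 alone, at 0.25, and between -0.13 and 0.49 on the marker-negative arrays. On the marker-negative arrays both Klrc2 probes were not well above background throughout, and neither was tested.

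Klrk1 encodes NKG2D, an activating receptor for stress-induced ligands that signals through DAP10. Its only probe (chromosome 6, 129635158 to 129635217) was well above background on 1 array, marker-negative replicate 4, at 1.25. Elsewhere it lay at 0.30, 0.25 and 0.49 on the marker-positive arrays and between -0.13 and 0.46 on the other marker-negative arrays. It was not tested and allows no fold.

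Klrg1 encodes an inhibitory receptor for cadherins found on mature NK and effector T cells. Its values were 0.65, 0.42 and 0.32 on the marker-positive arrays (chromosome 6, 122297046 to 122297105, minus strand). On the marker-negative arrays they ran from 0.03 through 0.35 to 2.24. Only marker-negative replicates 3 and 4 stood above the marker-positive arrays, and the groups overlapped. A difference of -0.28 (SE 0.44, limma adjusted p = 0.794) did not pass, and its sign turned without marker-negative replicate 4 (0.021) and within slide 1 (0.43), against -0.71 within slide 2.

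Klre1 encodes a receptor that pairs with KLRI proteins on NK cells. Probe 2 (chromosome 6, 129603375 to 129605318, plus strand), which matches its RefSeq transcript, read -0.05, -0.08 and 0.00 on the marker-positive arrays, none of them well above background. On the marker-negative arrays it read 0.09 at the lowest, 1.74 at the median and 3.79 at the highest. The groups did not overlap, although marker-negative replicates 2 and 3 were at background too. Against the floor, signal was about 2.86-fold lower in marker-positive cells, with a limma adjusted p of 0.223 that did not pass. Probe 1 (129608273 to 129608332), assigned to a cDNA in the files, was well above background in both channels on all 9 arrays. It gave 0.72, 0.59 and 0.24 against 0.58, 1.37 and 3.49 as the lowest, median and highest marker-negative values, and its difference was -1.10 (SE 0.56, limma adjusted p = 0.319). That difference was -0.27 with slide as a fixed block, -0.33 and -0.23 within slides 1 and 2, and -0.73 without marker-negative replicate 3. Its highest array was marker-negative replicate 3, at which probe 2 was at background, so the 2 Klre1 probes ordered the arrays differently.

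Klra8 encodes Ly49H, an activating receptor that recognises a mouse cytomegalovirus protein. Its probe (chromosome 6, 130148755 to 130151686, minus strand) was well above background on all 9 arrays, although the reference pool was at background on each. The values were 0.45, 0.75 and 1.30 on the marker-positive arrays, and 1.12, 2.52 and 5.84 as the lowest, median and highest on the marker-negative arrays. Marker-negative replicates 4 (5.84) and 6 (5.73) stood far above the other four, and marker-positive replicate 3 lay above marker-negative replicate 3. The difference of -2.34 (SE 1.08, limma adjusted p = 0.270, 5.07-fold) did not pass.

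Klra3 encodes Ly49C, an inhibitory receptor for class I molecules, and had 3 probes. Probe 3 (chromosome 6, 130406632 to 130407552, minus strand) was the brightest and read -0.25, -0.21 and -0.31 on the marker-positive arrays. The marker-negative values ran from 0.19 through a median of 0.47 to 2.21, with replicates 4 and 6 at 2.17 and 2.21 and the others at or below 0.51. Groups did not overlap, but the difference of -1.21 (SE 0.52, limma adjusted p = 0.237; -0.68 within slide 1) did not pass. Probes 1 (130396773 to 130396832) and 2 (130406561 to 130406620) were at background on every marker-positive array. Against the floor they were about 1.35-fold and 1.89-fold lower there (limma adjusted p = 0.371 and 0.337), and overlapped the marker-negative range. Each was well above background on 3 of 6 marker-negative arrays. For each of the 3 probes marker-negative replicates 4 and 6 were the highest arrays.

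Ncr1 encodes NKp46, an immunoglobulin-like activating receptor carried by nearly all NK cells. Its probe (chromosome 7, 3902600 to 3902659, plus strand, build mm7) read 0.05, 0.03 and 0.26 on the marker-positive arrays, none well above background. The marker-negative values were 0.35 at the lowest, 2.01 at the median and 3.63 at the highest, and 4 of the 6 arrays were well above background. The groups did not overlap. Against the floor, signal was about 3.04-fold lower in marker-positive cells, and a limma adjusted p of 0.178 did not pass.

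**Figure D2:**
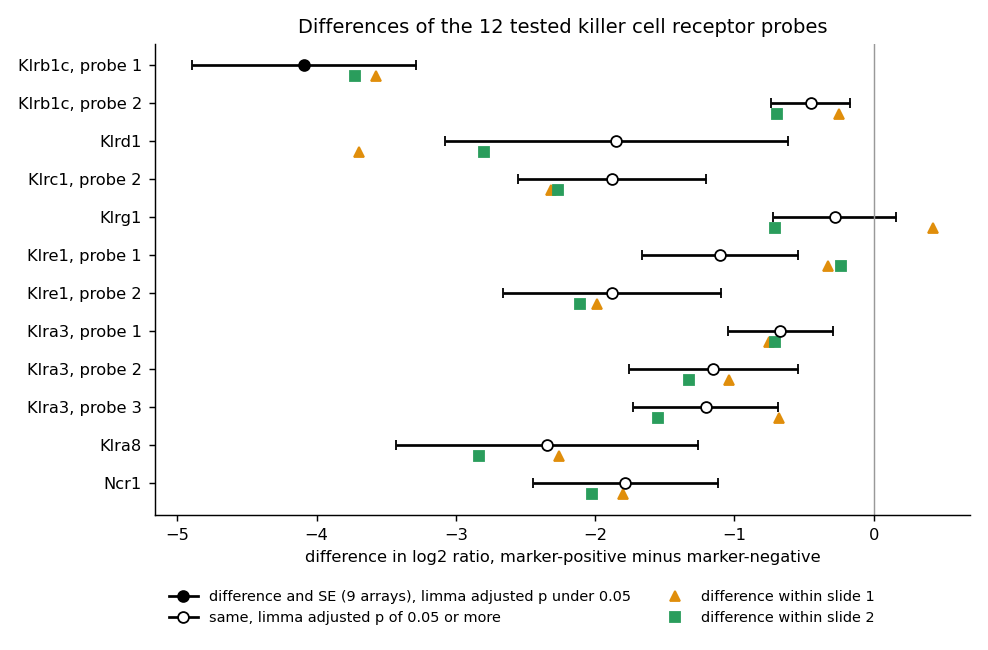
Difference in log2 ratio, marker-positive minus marker-negative, for the 12 tested probes: circles with SE bars from the limma fit over 9 arrays (filled where adjusted p is under 0.05), triangles within slide 1 and squares within slide 2. Klrb1c probe 1 is the only filled circle, at -4.09, and the Klrg1 triangle is the only symbol above 0.

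Slides 1 and 2 each held both groups, and the comparison could be read within them as values with no test. Within slide 1, marker-positive replicate 1 minus marker-negative replicate 1, the median over the 8 tested members was -2.03 and 7 of 8 differences were negative, Klrg1 (0.43) being the exception. Within slide 2, marker-positive replicate 2 minus the mean of marker-negative replicates 2 and 4, it was -2.15 and 8 of 8 were negative. Marker-positive replicate 3 stood alone on slide 5 and enters neither value.

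The marker-negative arrays were far from uniform. The mean log2 ratio over the 8 tested members was 4.18 and 3.85 on marker-negative replicates 4 and 6 and between 1.32 and 2.60 on the other four. For 11 of the 16 probes replicates 4 and 6 were the 2 highest marker-negative arrays. On the marker-positive arrays the same mean was 0.68, 0.73 and 1.40, so marker-positive replicate 3 lay above marker-negative replicate 2 by this measure. The general leukocyte markers moved alongside: their mean over 6 genes (Ptprc, Coro1a, Laptm5, Cd53, Rac2 and Arhgdib) was 2.0 and 1.80 on marker-negative replicates 4 and 6, between -1.74 and 0.83 on the other marker-negative arrays, and 1.38, 0.56 and 2.50 on the marker-positive arrays. None of the 6 was called, and their median difference was 1.0, opposite in sign to that of the receptors. Their part in the result was not tested.

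Signal could be shared among the Ly49 copies. The array carried 24 probes under 19 Klra names, and the RefSeq table held 16 Klra genes, of which 14 neighbour each other on chromosome 6 while Klra16 and Klra23 are listed apart from that cluster. Of the 19 names on the array 7 are not current symbols in that table (Klra12, Klra15, Klra18, Klra19, Klra20, Klra21 and Klra22); as background, several such names were given to receptors of other mouse strains. The files list accessions of several genes for 3 of the 24 probes, among them Klra3 probe 2, which carries accessions of Klra3, Klra6, Klra9 and Klra10. Klra3 probe 1 shares an accession with the Klra21 probe. The Klra8 probe lists Klra8 alone. Outside the Ly49 group, Klrc1 probe 1 and Klrc2 probe 1 each share an accession with the Klrc3 probe. How far related copies add to each signal was not tested.

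Of the 24 Klra probes 20 were tested, and all 20 had a lower mean in marker-positive cells. Their median difference was -2.02, against -0.031 over all tested probes. Klra16 probe 1, Klra22, Klra10, Klra12 and Klra3 probes 1 and 2 were at background on every marker-positive array, so the filter favoured a lower value for them. Of the untested probes Klra20 (-0.16) and Klra18 (-0.10) had lower means in marker-positive cells, and Klra19 (0.09) and Klra17 (0.11) higher ones. For 22 of the 24 the highest array was marker-negative replicate 4 or 6. The probe named Klra23 in the files, whose accession is that of Klra7 (Ly49G, an inhibitory receptor), was lower in marker-positive cells by -5.04 (SE 1.11, limma adjusted p = 0.0417). It read -0.13, 0.16 and -0.06 on the marker-positive arrays and 2.10 at the lowest, 5.49 at the median and 7.23 at the highest on the marker-negative arrays, with no overlap. That call ended with median centring (-4.40), with no detection filter (adjusted p = 0.0508), with slide as a fixed block (-5.10, adjusted p = 0.281) and without any 1 array other than marker-negative replicates 2 and 3. The probe named Klra7 differed by -5.24 (SE 1.29, limma adjusted p = 0.0602) and did not pass. Both probes separate the groups without overlap, and neither shows which of the near copies was transcribed.

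**Figure D3:**
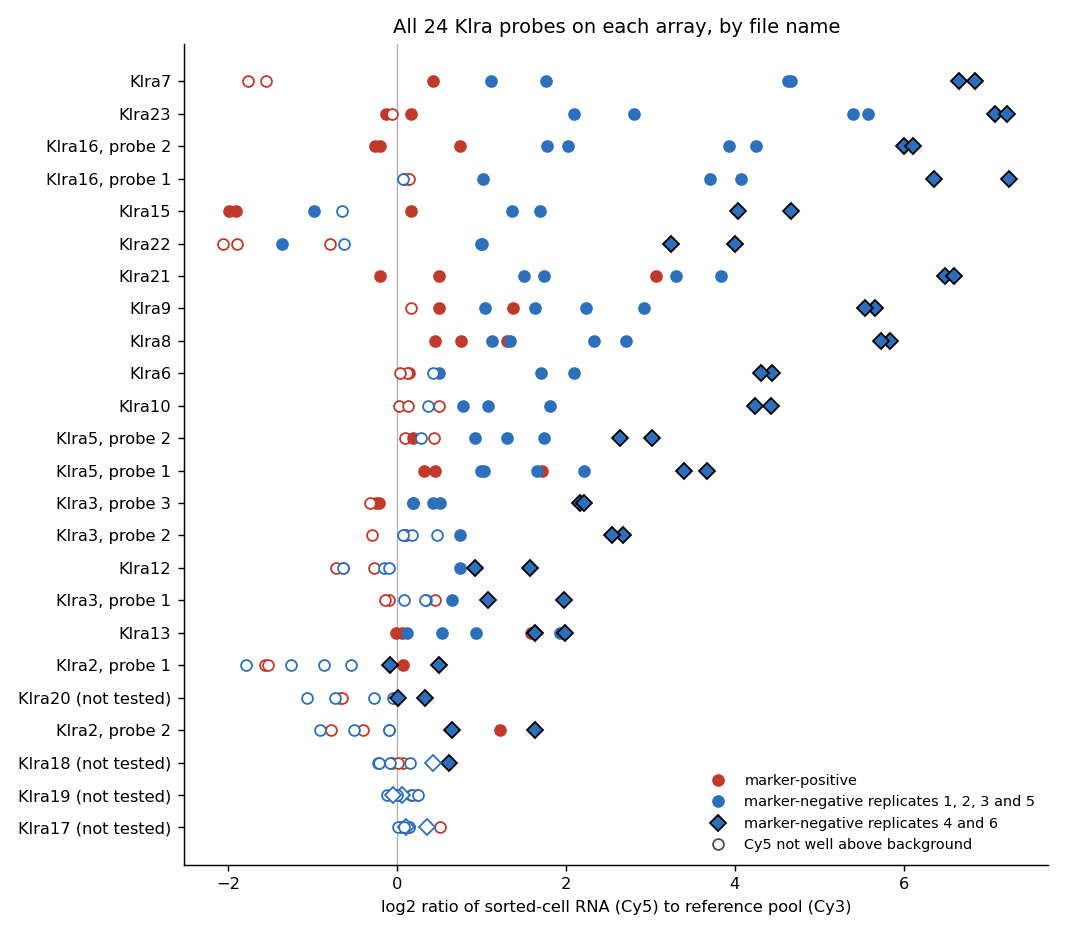
Log2 ratio to the reference pool for the 24 Klra probes under their names in the files, ordered by the difference between groups, with 1 point per array, open where Cy5 was not well above background, and diamonds for marker-negative replicates 4 and 6. The diamonds are the right-most points of most probes, and reach 7.23 for Klra23 and 5.84 for Klra8.

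Among 18 tested killer lectin-like receptor genes outside the member list, 1 was called lower (Klra23) and 0 higher, against 1.67% of all genes called lower. In this list 17 differences were negative and the median was -1.74, against -0.013 over all tested genes. Klra1 (the probe named Klra22), Klra10, Klra12, Klrc3 and Klri2 were at background on every marker-positive array, so the filter favoured a lower value for them. Most genes of the list are Klra copies already counted above, whose shared signal was not resolved. Klrb1a and Klrb1b, relatives of Klrb1c, did not pass (-1.12, limma adjusted p = 0.645, and -0.74, adjusted p = 0.784). On marker-positive replicate 3 they read 4.36 and 6.07, against marker-negative ranges of 1.15 to 5.75 for Klrb1a and 1.76 to 5.96 for Klrb1b, whereas Klrb1c read 0.23 on that array. Ligands of the receptors were tested for 11 genes and none was called, with a median of 0.18. Those nearest to the threshold were Clec2d, a ligand of some but not all NKR-P1 receptors (1.17, limma adjusted p = 0.172), and H2-K1, a class I molecule read by Ly49 receptors (0.65, adjusted p = 0.295). H2-T23, which encodes Qa-1, differed by 0.60 (adjusted p = 0.370), and the NKG2D ligands Raet1a, Raet1e and Ulbp1 by 0.18, 0.11 and 0.016.

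Of 17 adaptors and signalling genes tested, 0 were called lower and 1 higher, against 1.57% of all genes called higher, and the median was 0.26. Without marker-negative replicate 2 there was 1 lower call, and with array weights there were 3. Like the receptors, the list had its highest marker-negative means on replicates 4 (2.24) and 6 (2.26). Syk, a kinase that acts below immunoreceptor motifs, was the gene called higher, with a difference of 2.53 (SE 0.54, limma adjusted p = 0.0359), a call that ended with the scanner's processed signals (2.90, adjusted p = 0.0565), with slide as a fixed block (2.48), with median centring (2.27) and on leaving out any 1 array other than marker-positive replicate 3 and marker-negative replicate 4. Tyrobp, which encodes DAP12, read 4.22, 3.62 and 4.99 on the marker-positive arrays and averaged 3.98 on the marker-negative ones (difference 0.30, limma adjusted p = 0.859). Hcst, which encodes DAP10, differed by -1.33 (adjusted p = 0.50). Cd247, the zeta chain, differed by -1.65 (adjusted p = 0.166) and was at background on every marker-positive array. Lck, the kinase proximal to T and NK cell receptors, differed by -2.67 (adjusted p = 0.0771). In the other direction Fyn differed by 1.09 (limma adjusted p = 0.149), with no overlap between groups.

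Other NK cell receptors and co-receptors were mixed. Of 18 tested, 0 were called lower and 1 higher, against 1.57% of all genes called higher, with a median near 0. The higher one was Itgam (1.02, SE 0.19, limma adjusted p = 0.0215), an integrin chain also carried by myeloid cells, and that call ended with the scanner's processed signals (1.91, adjusted p = 0.113), with slide as a fixed block (0.82), with median centring (0.80) and without marker-positive replicate 1 or marker-negative replicate 1. Il2rb, the receptor chain through which NK cells receive interleukin-15, was lower but did not pass (-3.60, SE 0.85, limma adjusted p = 0.0517). It read 2.22, 2.34 and 5.99 on the marker-positive arrays and between 5.38 and 7.81 on the marker-negative arrays, so marker-positive replicate 3 alone overlapped. Cd96, a receptor for nectin-family ligands, differed by -3.45 (limma adjusted p = 0.115). In the other direction Il18r1 differed by 1.22 (limma adjusted p = 0.185).

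NK and cytotoxic cell factors and effectors held 7 lower calls: of 18 tested, 7 were lower and 0 higher, with a median of -2.82, against 1.67% of all genes called lower. The list was chosen with earlier results of these data known, so this share describes it and is no test. Gzmc, Eomes and Prf1 were at background on every marker-positive array and passed the filter through the marker-negative arrays alone. The filter therefore favoured a lower value for them, and the count and median are not independent of it. The 7 were the granzymes Gzma, Gzmb and Gzmc, the protease Ctsw, the death ligand Fasl, the cytokine Ifng and the T-box factor Tbx21. Gzmb read 0.70, 0.70 and 0.85 on the marker-positive arrays and between 5.42 and 6.25 on the marker-negative ones, with an SD of 0.34 there (n = 6) beside 1.53 for Klrb1c probe 1. Eomes, the other T-box factor of NK cells, was at background on all marker-positive arrays and differed by -0.73 (limma adjusted p = 0.0705). Perforin (Prf1), at background there too, differed by -1.68 (adjusted p = 0.272). Of the 18 differences 14 were negative, and the others ran the other way. Id2 differed by 1.48 (limma adjusted p = 0.0744), with every marker-positive array above every marker-negative one. S1pr5 differed by 1.39, Nfil3 by 0.65 and Ets1 by 0.31 (limma adjusted p = 0.399, 0.333 and 0.918). Runx3 differed by -0.21 (limma adjusted p = 0.843). With slide as a fixed block 3 genes of the list were called lower, and of the 7 only Gzmb was among them. With probes detected on all 9 arrays 3 of the 9 genes then tested were called lower. The Fasl and Ifng calls ended without marker-positive replicate 1, and the Ifng call without marker-positive replicate 2, with processed signals and with Cy5 alone as well. The Tbx21 call ended with median centring.

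Marker-positive replicate 3 read high for some genes of the members and lists above and low for others. Beside Klrd1 (8.23), it read 7.42 for the chemokine Xcl1, 5.65 for the granule protein Nkg7, 5.99 for Il2rb and 5.20 for the co-receptor Cd226, all within or above the marker-negative ranges of these genes. On the same array Klrb1c read 0.23, Ncr1 0.26, Gzmb 0.85, Gzmc 0.01 and Fasl 0.00, all at or below the marker-negative ranges. Marker-positive replicates 1 and 2 read 2.73 and 1.56 for Xcl1 and 1.55 and 2.15 for Nkg7, and so did not share the high values. This description, with its choice of genes, was drawn up after the values were seen and has no test. It rests on 1 array, the one with the lowest share of probes well above background (45.4%).

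**Figure D4:**
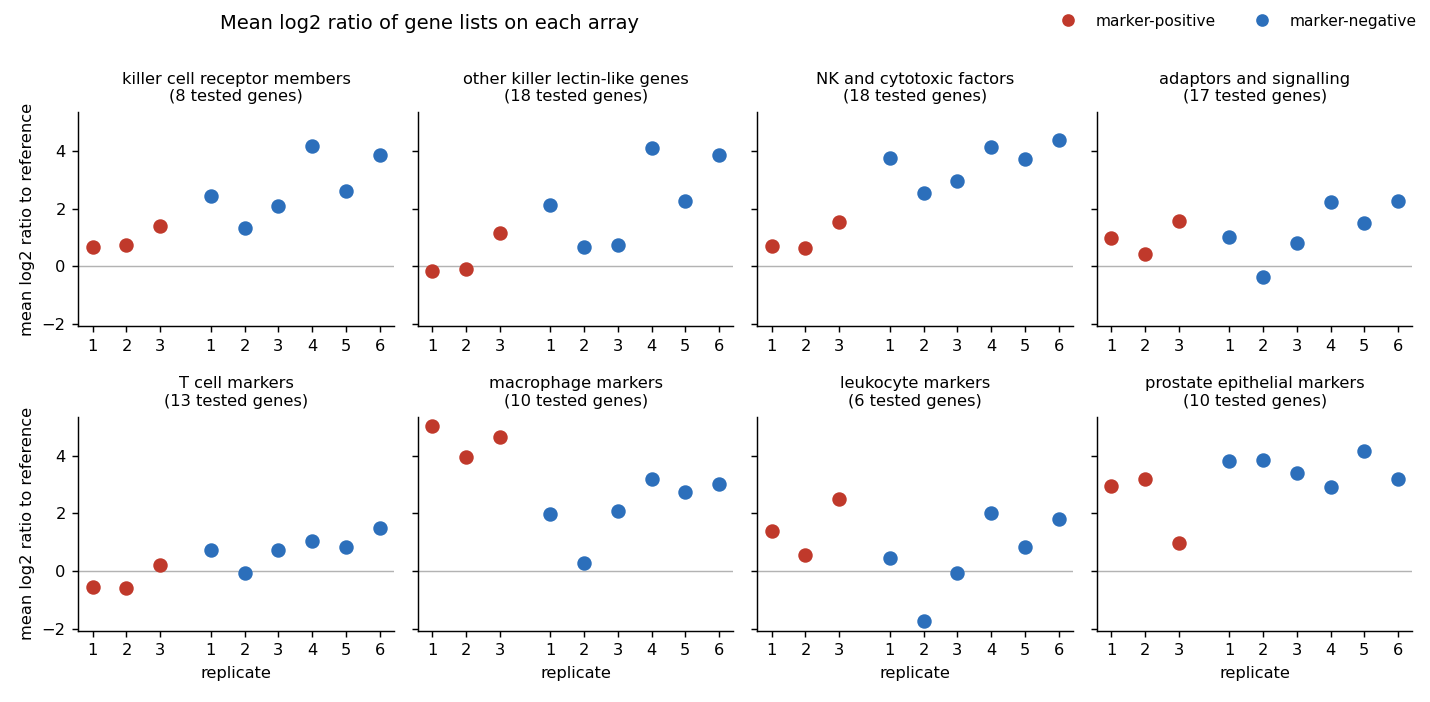
Mean log2 ratio to the reference pool over the tested genes of 8 gene lists, 1 point per array, marker-positive replicates 1 to 3 on the left and marker-negative replicates 1 to 6 on the right of each panel. The NK and cytotoxic factors lie between 0.64 and 1.54 on the marker-positive arrays and between 2.53 and 4.37 on the marker-negative ones, while macrophage markers lie higher on the marker-positive arrays, at 3.95 to 5.02.

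Markers of other cells that a sort could hold moved too, in both directions. Over all tested genes 1.67% were called lower and 1.57% higher. These lists too were chosen with earlier results of these data known. Of 13 T cell markers 3 were lower (Cd3d, Cd3g and Cd8a) and 0 higher, with a median of -0.43 and array means of -0.61 to 0.22 in marker-positive and -0.08 to 1.49 in marker-negative cells. These markers did not move together: 8 of the 13 differences were negative. Cd3e, well above background on every array, differed by -0.12 (limma adjusted p = 0.915). Cd2 (0.41), Thy1 (0.38), Cd28 (0.33), Cd4 (0.32) and Themis (0.23) had higher means in marker-positive cells, none of them called. Cd8a was at background on every marker-positive array, and none of the 13 was called without marker-positive replicate 1, without marker-positive replicate 2 or with slide as a fixed block. Of 10 macrophage markers 3 were higher (Cd163, Mrc1 and Lyz2) and 0 lower, with array means of 3.95 to 5.02 against 0.27 to 3.18, and Cd163 and Mrc1 were at background on every marker-negative array. The Lyz2 call ended without marker-positive replicate 1 or 2. Of 8 mast cell markers 3 were higher (Cpa3, Fcer1a and Tpsb2) and 0 lower, with array means of 3.44 to 3.96 against 0.19 to 2.62. The Cpa3 call ended without any 1 array other than marker-negative replicates 3 and 4. B cell markers gave 0 calls among 6, with a median of 0.08. Of 10 prostate epithelial markers 3 were lower (Msmb, Pbsn and Tmprss2) and 1 higher (Trp63), with array means of 0.98 to 3.20 against 2.91 to 4.15. Of these epithelial calls Msmb alone was made with each array left out in turn. With slide as a fixed block Cd163, Mrc1 and Tpsb2 were still called, and the other macrophage, mast cell and epithelial calls ended. The part of these markers in the receptor values was not tested.

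The genes whose pattern over the 9 arrays was most like that of the tested members were ranked by Pearson correlation with the mean of their centred log2 ratios, among 19811 genes. The arrays of a group share a sort and a dye layout, so these coefficients describe likeness and carry no test. The 8 nearest were the probe named Klra22 in the files, which is a synonym of Klra1 in the RefSeq table while the accession of the probe is that of Klra4 (0.987), the cystatin Cst7 (0.983), Cd96 (0.981), the adaptor Skap1 (0.977), the T cell receptor gamma locus Tcrg (0.976), Klra16 (0.976), the T cell receptor chain Cd3g (0.974) and Klra15 (0.972). Over the 6 marker-negative arrays alone the same genes gave 0.988, 0.989, 0.961, 0.962, 0.973, 0.957, 0.981 and 0.973. Of these 8 genes 3 are Ly49 names, and Cd3g and Tcrg are genes of the T cell receptor complex. Which cells carried their transcripts was not tested.

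The authors' deposited table lists a comparison of the same 16 probes, with the sign of its log2 difference running from stem to non-stem and turned here. In the authors' deposited table Klrb1c probe 1 was the only one of the 16 under an adjusted p of 0.05 (-4.09, adjusted p = 0.00268). Klrc1 probe 2 stood next in the authors' deposited table, with an adjusted p of 0.0505. No difference there departed from the value given here by more than 0.0128.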

How the data were processed

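RNA of 2 sorted prostate fractions was measured on 9 two-colour Agilent arrays. The scanner files hold mean, background and processed intensity values, which the authors obtained with Agilent Feature Extraction (version 10.7.3.1 per the file headers, listed as 10.7 by the submitters). The authors' deposited table holds log2 differences, p-values, a signed fold and score columns of limma for stem against non-stem cells. No source used here gives its normalization.

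In R 4.3.3, limma 3.58.1 corrected the mean signals by normexp (offset 50) and normalized them by loess within arrays. Control and outlier spots had weight 0, outliers were then dropped, and the spots of each probe averaged. Probes were tested where Cy5 was well above background on at least 3 arrays, by lmFit and eBayes (trend, robust), two-sided, over all 9 arrays. A gene is its tested probe of highest mean intensity. Probe coordinates are mm7:NCBI35:Aug2005 (headers), with exons and untranslated regions of that build not used here. Promoters and names come from RefSeq (GRCm38.p6).

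Every member was named, with up to 4 genes of each list by adjusted p, further genes where the text compares them, and the 8 genes of most like pattern. The members and lists were chosen with earlier results of these data known. Simulated data with 200 changed probes of 28340 gave 51% of log2 2 changes and 5% of log2 1 changes, and 5.08% of 59 calls were false. Plots were drawn with matplotlib 3.10.9.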

Additional observations from a re-analysis of the deposited data

Results flagged for a closer look

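Klrc2 probe 2 read 0.49 on marker-negative replicate 6, far from the other 5 marker-negative arrays by Dixon's criterion for a single outlying value. It was not well above background on that array. Chance gives such a value in about 1 in 20 groups, and 16 probes were checked.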

How the results depend on the processing

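Pairing by replicate number was not available, since the labels give none; slide was fitted as a block instead, and the Klrb1c difference was then -3.66 (limma adjusted p = 0.264). The 1 Klrb1c call among the members became 0 with probes detected on all 9 arrays (where probe 1 was not tested) and 0 with slide as a fixed block, and 4 members were called with array weights. Leaving out 1 array gave 0 to 1 called members. Calls over all genes, 311 higher and 332 lower, were 141 and 85 with median centring, 128 and 20 with slide as a fixed block, and 2136 and 2160 with array weights; leaving out 1 array gave 101 to 934 higher and 88 to 495 lower. The cause was not tested. Klrg1 ranged from -0.42 to 0.021 over the same omissions, the 1 reversal among the 12 tested probes over these omissions. With processed signals the differences of Klrb1c probe 2 (-2.66), Klrc1 probe 2 (-2.91), Klre1 probe 2 (-4.08), Ncr1 (-4.44) and Klra3 probes 1 to 3 (-2.06, -2.88 and -1.93) were larger, none of them called. The member median was -2.42 with processed signals and between -2.11 and -1.46 under the other settings tried. Scaling moved the median of all genes by 0.06 at most among the normalizations tried. Faint signal limits the rest: the reference was never well above background for 10 of the 16 probes, so their ratios are set against background.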
